A study of Mus musculus with 7 samples.

Results

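The antioxidant and glutathione genes are 42 genes that keep reactive oxygen species in check. They were taken by symbol from a list, a rule that uses no measured value, and all 42 were found among the 55484 genes of the count table. The group holds the regulator Nfe2l2 (NRF2) with its relatives, the enzymes that make, use and recycle glutathione, the peroxiredoxins, superoxide dismutases and thioredoxins, and the metal-binding proteins Mt1, Mt2 and Fth1. Their RNA was measured in 4 libraries of mouse embryonic fibroblasts (MEFs), connective tissue cells grown from the embryo, and 3 libraries of mouse embryonic stem cells (mESCs), pluripotent cells grown from the early embryo. Both cell types are labelled as C57/Bl6 background, with no treatment, time, age or further allele. The labels state no sort, culture medium or passage for the RNA. They do not say that the libraries came from separate cultures or embryos either. The study describes its transcriptional data as 3 biological replicates, whereas 4 MEF libraries are held here. Levels of Y-linked genes, given below, differed between libraries of one cell type. The p-values measure the spread between these libraries, and how much of it is technical cannot be told. The RNA extraction text of the labels describes blood stem cells of young and aged mice, so the cell types were checked against marker genes below.

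Cells make superoxide and hydrogen peroxide as by-products of respiration and protein folding. Superoxide dismutases turn superoxide into hydrogen peroxide, and catalase, glutathione peroxidases and peroxiredoxins remove the peroxide. The glutathione peroxidases and peroxiredoxins do so with electrons that come from NADPH through glutathione or thioredoxin. NRF2 switches on many of these genes when oxidants or electrophiles release it from KEAP1, which otherwise marks it for degradation, while metallothioneins are switched on by zinc and other metals through the factor MTF1. Pluripotent stem cells and fibroblasts are known to differ in respiration, secretion and matrix folding, so the comparison asks which branches of this defense differ between the cell types.

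All 42 genes had enough counts to be tested. In mESCs 14 were higher and 16 lower, and the other 12 did not pass the test (the quasi-likelihood test of edgeR, adjusted by the Benjamini-Hochberg method over all genes, adjusted p under 0.05). The 30 called genes were 71.4% of the group, beside 47.9% of the 16580 genes tested. Among all genes 22.8% were called higher and 25% lower. For 29 members (69%) no library of one cell type lay within the range of the other, with mESCs above for 13 and below for 16, beside 52.1% of all genes. The median log2 fold change, mESC minus MEF, was -0.33 for the members and 0.04 for all genes, and the median absolute value was 1.07 beside 0.81. A change of more than 2-fold was fitted for 23 of the 42 (54.8%), beside 42.7% of all genes. The count of members called describes this list and does not set it apart from other lists.

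Metallothioneins and the transferase Gsta4 were the members furthest above MEFs in mESCs, and the glutathione genes Gclc, Gclm and Gsr were higher too. The peroxidases Gpx8, Gpx3 and Gpx7, the membrane transferase Mgst1 and the extracellular dismutase Sod3 were furthest below. Members within one enzyme family thus moved in opposite directions. Gpx4 rose and the other 4 glutathione peroxidases fell, Prdx1 rose and Prdx2 to Prdx5 fell, and Sod1 and Sod2 rose while Sod3 fell. The calls of Prdx2, Sod1 and Sod3 were lost in some alternatives, and Gpx4 shares sequence with a copy, as given below.

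**Figure D1:**
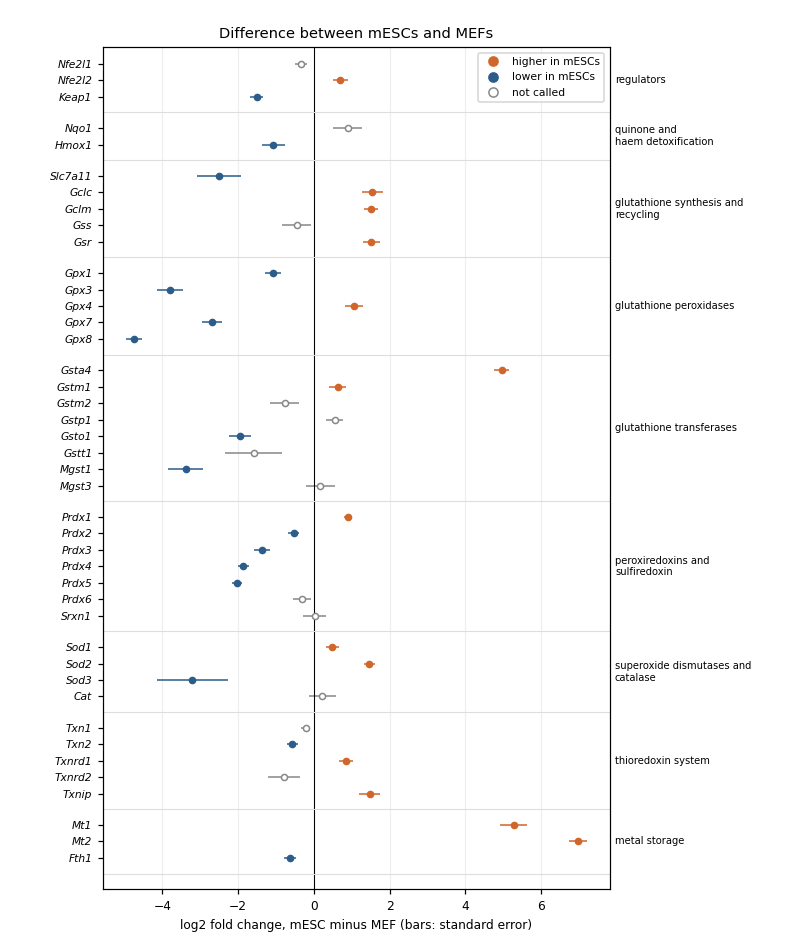
Log2 fold change, mESC minus MEF, of each of the 42 genes from edgeR, with its standard error as a bar, grouped by role. Orange points are the 14 genes called higher, blue points the 16 called lower and open points the 12 not called; the values run from -4.75 for Gpx8 to 6.96 for Mt2.

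The libraries held 6528643 to 11441278 counts. They are named here in order of total within each cell type, and values are listed in that order, MEFs first. Levels are CPM, a gene's counts in each 1000000 counts of its library, after scaling by edgeR's TMM method, and 3 counts, taken as the floor of a library, were 0.288 to 0.477 CPM. Levels are compared within a gene only. In bulk RNA, fewer cells of a type and less RNA per cell cannot be told apart. TMM scaling lowered the difference between the cell types by 0.28 on the log2 scale (median over all genes 0.04, against 0.32 with library size alone). Scaled by library size alone, 5180 genes were higher and 3345 lower, against 3785 and 4153 with TMM. For the members the split was then 16 higher and 13 lower.

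All 10 pluripotency markers were higher and all 11 fibroblast markers lower in mESCs. Each cell type also held some RNA of the other one's markers. Pluripotency markers in MEFs were at 0.462% to 4.45% of their mESC level (median 0.766%), and fibroblast markers in mESCs at 0.452% to 16.6% of their MEF level (median 0.856%). Summed over the list, fibroblast markers held 23735 to 40834 CPM in MEFs and 172 to 197 CPM in mESCs, and pluripotency markers 42.9 to 47.5 and 3219 to 3431 CPM. Of 10 blood genes, 3 could be tested, and the summed level of the list was 10.8 to 32.5 CPM in MEFs and 67.1 to 76.1 CPM in mESCs, led by Laptm5 in mESCs. Keratin genes summed to 76.2 to 91.8 and 73.1 to 87.8 CPM and neural genes to 2.76 to 4.13 and 31.1 to 58.5 CPM. The endothelial list stood at 12.7 to 21.6 and 10.1 to 17.4 CPM, and the list for primitive endoderm and trophoblast at 25.9 to 36.7 and 13.9 to 34.1 CPM. The summed Y-linked genes Ddx3y, Eif2s3y and Kdm5d were at 2.11, 90.6, 0.610 and 88.4 CPM in the 4 MEF libraries and at 1.73, 1.82 and 35.9 CPM in the mESC libraries. Over all genes the MEF libraries fell into the same pairs, since chi-square per degree of freedom was 15.8 between the first and the third and 20.1 between the second and the fourth, against 26.2 to 31.1 for the other MEF pairs. The calls of members were therefore also made with each MEF pair alone, an alternative chosen after seeing the data.

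**Figure D2:**
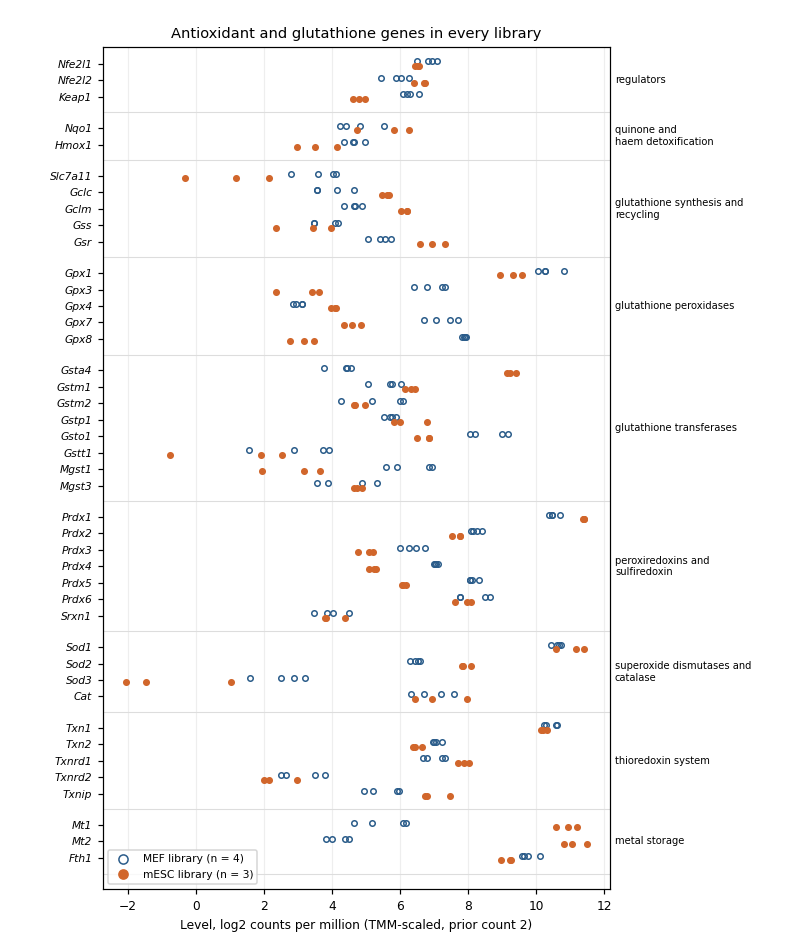
Level of each of the 42 genes in every library, in log2 CPM (TMM-scaled, prior count 2). Open blue circles are the 4 MEF libraries and filled orange circles the 3 mESC libraries; for 29 genes the circles of the cell types do not overlap, with the widest gaps for Mt2, Mt1, Gsta4 and Gpx8.

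Among the regulators, the transcript of the activator rose in mESCs and that of its inhibitor fell. Nfe2l2, which encodes NRF2 (chr2:75675513-75704641, minus strand, GENCODE M21 on GRCm38), was at 64.9, 58.2, 43.1 and 76.8 CPM in the MEF libraries and at 85.2, 106 and 104 CPM in the mESC libraries. The mESC libraries were all above the MEF libraries, by 1.62-fold in the mean (log2 fold change 0.70, SE 0.20, edgeR adjusted p = 0.0144). Its call was lost without the second mESC library (edgeR adjusted p = 0.0523) and with the second and the fourth MEF libraries alone (0.0627).

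Keap1 encodes the adaptor that holds NRF2 for ubiquitination (chr9:21229730-21239361, minus strand). It was at 78.6, 74.3, 67.5 and 93.5 CPM in MEFs and at 31.0, 27.4 and 24.2 CPM in mESCs. The gap was wide, 2.85-fold lower in mESCs with no overlap (log2 fold change -1.51, SE 0.18, edgeR adjusted p = 5.45e-05). The antisense gene Gm16754 covers 10.9% of its exonic bases, and adding the counts of both genes changed the ratio of mESC to MEF from 0.351 to 0.376. Nfe2l1, the related factor NRF1 that acts on proteasome genes, overlapped between the cell types at 90.5 to 135 CPM in MEFs and 87.5 to 93.9 CPM in mESCs and did not pass the test (log2 fold change -0.34, SE 0.16, edgeR adjusted p = 0.112). These levels are of transcripts, whereas NRF2 is known to be set mostly at the level of the protein.

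NRF2 acts through a DNA element in the promoters of its targets. RefSeq promoters on GRCm38.p6 were available for 36 of the 42 members, and the 250 bases before each start site were searched on both strands for the core of the antioxidant response element, TGACNNNGC. It was found in 7 of the 36 genes (19.4%), beside 11.5% of 27025 genes with a promoter. The sites are shown with 8 bases on each side, 5′ to 3′ on the strand of the gene and with the match in capitals, because they are the letters through which this regulator is known to act. The match begins 240 bases before the start in Nfe2l2, 134 in Gclm, 133 in Prdx1, 92 in Txnrd1, 56 in Mgst1, 56 in Sod1 and 79 in Mt2.
Nfe2l2: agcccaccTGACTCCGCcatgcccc
Gclm: tcccgggcGCACCGTCAactctcac
Prdx1: gggaaagcGCTGAGTCAtcccccgt
Txnrd1: ggatttttGCTTTGTCAttctgaca
Mgst1: ggggcttgGCACGGTCAggaggcgg
Sod1: caaggtggGCGTGGTCAgactcagg
Mt2: agggggtgTGACTCAGCgcgggggg

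The stretches lie at chr2:75704887-75704911 and chr3:122245415-122245439, chr4:116685458-116685482 and chr10:82859106-82859130, chr6:138140463-138140487, chr16:90220698-90220722 and chr8:94172531-94172555, in the order printed. Nfe2l2 is on the minus strand and the other 6 genes on the plus strand. Of these 7 genes, 6 were called higher in mESCs, among them Sod1 and Nfe2l2 whose calls were lost in some alternatives, and Mgst1 was lower. Higher calls were made for 14 of the 42 members and 22.8% of all genes. Those 14 include Gclc, Gsr and Gsta4, for which no promoter was available to search. The 7 genes were not tested as a set. A match is a description of the letters and not a binding site, and no match in this window says nothing about sites elsewhere.

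Of the classic NRF2 targets Nqo1 and Hmox1, the second was lower in mESCs and the first did not pass the test. Nqo1, a quinone reductase, was at 46.3, 21.2, 28.0 and 18.8 CPM in MEFs and 76.3, 56.9 and 26.2 CPM in mESCs. One mESC library lay inside the range of the MEF libraries, and the difference did not pass the test (log2 fold change 0.89, SE 0.38, edgeR adjusted p = 0.0764). It passed under DESeq2, with library size alone, with no filter, without the first MEF or the third mESC library and with the second and the fourth MEF libraries alone, with log2 values of 0.85 to 1.38. Hmox1, the enzyme that splits haem, was lower in every mESC library, at 24.9, 31.4, 20.1 and 24.3 CPM in MEFs and 17.3, 11.0 and 7.67 CPM in mESCs (log2 fold change -1.07, SE 0.30, edgeR adjusted p = 0.0127). With the first and the third MEF libraries alone the Hmox1 call was lost (edgeR adjusted p = 0.0688).

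Of the 4 genes for enzymes that build and recycle glutathione, 3 were higher in mESCs, and the transporter that brings in the limiting amino acid was lower. Gclc, the catalytic subunit of glutamate-cysteine ligase (chr9:77754535-77794485, plus strand), was at 24.8, 11.5, 17.7 and 11.6 CPM in MEFs and 43.9, 51.0 and 49.0 CPM in mESCs. Gclm, its modifier subunit (chr3:122245557-122270732, plus strand), was at 24.8, 25.2, 29.6 and 20.4 CPM in MEFs and 74.0, 73.5 and 65.5 CPM in mESCs. Both subunits of this first step of synthesis were above the MEF range in every mESC library, 2.92-fold for Gclc (log2 fold change 1.54, SE 0.27, edgeR adjusted p = 8.74e-04) and 2.84-fold for Gclm (log2 fold change 1.51, SE 0.17, edgeR adjusted p = 4.21e-05).

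The antisense gene Gm17494 overlaps 4.71% of the exonic bases of Gclm and shares 10.3% of the 50-base sequences in its last 500 bases. It held more counts than Gclm in every library, 96.7 to 120.5 CPM in MEFs and 90.6 to 99.0 CPM in mESCs, and did not pass the test (edgeR adjusted p = 0.235). Without a stated strand setting, reads of the shared stretch cannot be assigned to one of the genes. The ratio of the sum of both genes, which holds all counts of Gm17494, was 1.23, beside 2.84 for Gclm alone.

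Gsr, the reductase that returns oxidized glutathione to its reduced form with NADPH, was at 53.2, 46.7, 32.9 and 42.1 CPM in MEFs and 123, 159 and 95.4 CPM in mESCs. It was 2.87-fold higher with no overlap (log2 fold change 1.52, SE 0.21, edgeR adjusted p = 1.91e-04). Gss, the synthetase of the second step, overlapped at 10.8 to 17.8 CPM in MEFs and 4.84 to 15.5 CPM in mESCs and did not pass the test (log2 fold change -0.45, SE 0.39, edgeR adjusted p = 0.375). Of these 4 genes, Gclc, Gclm and Gsr thus passed the test, Gclm with the limit that a stretch is shared with its antisense neighbor, and Gss did not.

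Slc7a11 is the light chain of the cystine-glutamate exchanger, which supplies cysteine for glutathione (chr3:49892526-50443614, minus strand). It was at 16.0, 11.9, 17.2 and 6.68 CPM in MEFs and at 4.23, 0.568 and 2.01 CPM in mESCs. The cell types did not overlap, and both were spread widely (log2 fold change -2.50, SE 0.58, edgeR adjusted p = 0.00463). The highest mESC library was 7.44 times the lowest, and without that highest library the log2 fold change was -3.33. Summed over the 5 genes of synthesis and recycling, the level was 91.6 to 129.8 CPM in MEFs and 217 to 294 CPM in mESCs.

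All 5 glutathione peroxidases differed, 4 lower and 1 higher in mESCs. Gpx8, a peroxidase of the endoplasmic reticulum (chr13:113042753-113046410, minus strand), was the member furthest below, at 235, 229, 244 and 242 CPM in MEFs and 10.9, 8.86 and 6.61 CPM in mESCs. The MEF libraries agreed within 1.07-fold, the tightest of all members, and the level was 27.0-fold lower in mESCs (log2 fold change -4.75, SE 0.21, edgeR adjusted p = 5.11e-08). Gpx7, the other peroxidase of that compartment, which passes oxidizing power to protein disulfide isomerase during folding, was at 132, 179, 105 and 211 CPM in MEFs and 23.6, 20.3 and 28.9 CPM in mESCs (log2 fold change -2.69, SE 0.26, edgeR adjusted p = 1.42e-05). Both peroxidases of the secretory pathway were thus several-fold lower in mESCs with no overlap.

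Gpx3, the secreted peroxidase of plasma (chr11:54902453-54910377, plus strand), was at 85.3, 161, 112 and 149.8 CPM in MEFs and 12.0, 4.89 and 10.4 CPM in mESCs. It was 13.9-fold lower in mESCs (log2 fold change -3.80, SE 0.35, edgeR adjusted p = 8.77e-06). Gpx1, the abundant cytosolic selenoenzyme, was at 1235, 1069, 1799 and 1222 CPM in MEFs and 762, 488 and 638 CPM in mESCs, 2.12-fold lower (log2 fold change -1.08, SE 0.20, edgeR adjusted p = 0.00127). As a share of the MEF level, the mESC level was 3.71% for Gpx8, 7.17% for Gpx3 and 15.5% for Gpx7. Fibroblast markers in mESCs were at 0.452% to 16.6% of their MEF level with a median of 0.856%. The top of this range was Lum alone, and the next marker was Twist1 at 8.05%. All 3 values lay above the median, and the part of stray fibroblast RNA in these mESC levels was not tested.

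Gpx4, the enzyme that reduces lipid peroxides in membranes and guards against ferroptosis (chr10:80047166-80056439, plus strand), went the other way. Counted under its own name it had 8.44, 8.39, 7.01 and 7.47 CPM in MEFs and 15.6, 17.2 and 16.6 CPM in mESCs, 2.10-fold higher (log2 fold change 1.07, SE 0.23, edgeR adjusted p = 0.00324). These low values are uncertain, because 57.9% of the 50-base sequences in the last 500 bases of Gpx4 also occur in the copy Gpx4-ps2, a gene looked at after its values were seen. Gpx4-ps2 held 272 to 325 CPM in MEFs and 555 to 646 CPM in mESCs. The sum of both was 303 ± 24.0 CPM (SD, n = 4) and 609 ± 46.3 CPM (SD, n = 3), a ratio of 2.01 that is close to that of Gpx4 alone. The peroxidases as a class, without the copy, summed to 1646 to 2266 CPM in MEFs and 539 to 824 CPM in mESCs.

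The glutathione transferases, which couple glutathione to electrophiles, split into 2 higher, 2 lower and 4 not called. Gsta4, an alpha-class enzyme that acts on 4-hydroxynonenal and other products of lipid peroxidation (chr9:78182774-78209349, plus strand), was at 20.9, 13.4, 23.3 and 21.5 CPM in MEFs and 561, 675 and 602 CPM in mESCs. Every mESC library was more than 20 times above every MEF library, 31.0-fold in the mean (log2 fold change 4.95, SE 0.20, edgeR adjusted p = 3.66e-08). The MEF level was 3.23% of the mESC level, within the 0.462% to 4.45% at which pluripotency markers stood in MEFs, and the part of stray stem cell RNA in it was not tested.

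Mgst1, a transferase of microsomal and mitochondrial membranes (chr6:138140316-138156755, plus strand), was at 60.1, 123, 48.2 and 115 CPM in MEFs and 8.89, 3.64 and 12.4 CPM in mESCs. It was 10.4-fold lower in mESCs (log2 fold change -3.38, SE 0.46, edgeR adjusted p = 1.56e-04). Gsto1, an omega-class enzyme that reduces dehydroascorbate, was at 579, 294, 511 and 267 CPM in MEFs and 115, 91.2 and 115 CPM in mESCs, 3.85-fold lower (log2 fold change -1.95, SE 0.28, edgeR adjusted p = 2.11e-04). In neither gene did a library of one cell type reach the range of the other.

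Gstm1, a mu-class enzyme, was only modestly higher in mESCs, at 52.3, 53.9, 33.4 and 65.2 CPM in MEFs and 86.4, 70.6 and 80.1 CPM in mESCs (log2 fold change 0.63, SE 0.21, edgeR adjusted p = 0.0331). Its libraries did not overlap, but the call was lost without the first or the second MEF library and without the first or the third mESC library, with edgeR adjusted p of up to 0.110. Gstp1, the pi-class enzyme, overlapped at 46.4 to 58.6 CPM in MEFs and 56.8 to 112 CPM in mESCs and did not pass (log2 fold change 0.55, SE 0.23, edgeR adjusted p = 0.0738). Its neighbor Gstp2 shares 33.7% of its 50-base sequences, so counts could be split between them. Gstm2 (log2 fold change -0.77, SE 0.38, edgeR adjusted p = 0.117), Gstt1 (log2 fold change -1.58, SE 0.75, edgeR adjusted p = 0.109) and the membrane enzyme Mgst3 (log2 fold change 0.17, SE 0.38, edgeR adjusted p = 0.741) did not pass either, with MEF libraries that spread 3.55-fold, 5.58-fold and 3.45-fold.

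Among the peroxiredoxins, which reduce peroxides through a reactive cysteine, Prdx1 was the one higher in mESCs and 4 others were lower. Prdx1, the main cytosolic form (chr4:116685544-116700822, plus strand), was at 1672, 1342, 1414 and 1423 CPM in MEFs and 2687, 2717 and 2738 CPM in mESCs. Its mESC libraries agreed within 1.02-fold and all lay above the MEF range (log2 fold change 0.89, SE 0.10, edgeR adjusted p = 5.17e-05). Prdx2, the related cytosolic form, was lower by a small margin, at 273 to 339.7 CPM in MEFs and 186 to 218 CPM in mESCs (log2 fold change -0.54, SE 0.14, edgeR adjusted p = 0.00792), and with library size alone this call was lost (log2 -0.26, edgeR adjusted p = 0.179).

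The forms of other compartments fell further. Prdx4, the form of the endoplasmic reticulum (chrX:155323918-155340754, minus strand), was at 134, 139.8, 129 and 131 CPM in MEFs and 38.7, 37.3 and 34.1 CPM in mESCs, 3.64-fold lower (log2 fold change -1.86, SE 0.14, edgeR adjusted p = 2.50e-06). Prdx5, found in mitochondria, peroxisomes and cytosol, was at 267, 266, 277 and 319.7 CPM in MEFs and 72.6, 66.8 and 68.4 CPM in mESCs, 4.08-fold lower (log2 fold change -2.03, SE 0.14, edgeR adjusted p = 1.16e-06). Prdx3, the mitochondrial form, was at 106, 89.2, 77.3 and 63.3 CPM in MEFs and 37.1, 33.7 and 27.1 CPM in mESCs (log2 fold change -1.36, SE 0.21, edgeR adjusted p = 3.50e-04). Their libraries did not overlap in any of the 3 genes.

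Prdx6, which works with glutathione rather than thioredoxin, overlapped at 218 to 399.8 CPM in MEFs and 198 to 273 CPM in mESCs and did not pass (log2 fold change -0.31, SE 0.24, edgeR adjusted p = 0.309). Srxn1, sulfiredoxin, restores over-oxidized peroxiredoxins and is a known NRF2 target. It stood at 16.0, 10.9, 14.2 and 22.4 CPM in MEFs and 20.7, 13.5 and 13.9 CPM in mESCs, with log2 fold change 0.02, SE 0.29, and no shown direction. The summed level of the 7 genes was 2373 to 2831 CPM in MEFs and 3252 to 3352 CPM in mESCs, so the class sum was higher in mESCs while 4 of its 7 genes were lower.

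The superoxide dismutases differed by compartment. Sod2, the manganese enzyme of mitochondria (chr17:13006846-13040063, plus strand), was at 93.1, 86.3, 95.3 and 78.6 CPM in MEFs and 232, 226 and 272 CPM in mESCs, 2.76-fold higher with no overlap (log2 fold change 1.46, SE 0.14, edgeR adjusted p = 1.25e-05). Sod3, the extracellular enzyme (chr5:52363791-52371418, plus strand), was at 2.78, 7.19, 8.99 and 5.41 CPM in MEFs and 0, 1.82 and 0.118 CPM in mESCs, with counts of 0, 16 and 1 in the mESC libraries (log2 fold change -3.21, SE 0.94, edgeR adjusted p = 0.0164). Both mESC libraries other than the second were under the floor of 3 counts. The Sod3 value rests on single libraries, at -6.40 without the second mESC library and -2.74 without the third, where the call was lost (edgeR adjusted p = 0.0532).

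Sod1, the copper-zinc enzyme of the cytosol, was called by a narrow margin, at 1573, 1619, 1693 and 1388 CPM in MEFs and 2329, 2735 and 1542 CPM in mESCs (log2 fold change 0.49, SE 0.17, edgeR adjusted p = 0.0367). The third mESC library lay within the MEF range. The call was lost without the first, the second or the fourth MEF library and without the first or the second mESC library, with edgeR adjusted p of up to 0.182. Cat, the catalase of peroxisomes, varied from 79.2 to 193 CPM among MEF libraries and from 87.4 to 249.7 CPM among mESC libraries and did not pass (log2 fold change 0.23, SE 0.37, edgeR adjusted p = 0.649).

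In the thioredoxin system, the cytosolic reductase and the inhibitor rose and the mitochondrial thioredoxin fell. Txnrd1, the selenoenzyme that reduces cytosolic thioredoxin, was at 151, 110.2, 159.9 and 102 CPM in MEFs and 260.1, 237 and 210.5 CPM in mESCs, 1.80-fold higher (log2 fold change 0.85, SE 0.18, edgeR adjusted p = 0.00303). Txnip, which binds thioredoxin and limits glucose uptake, was at 30.5, 62.1, 36.6 and 60.6 CPM in MEFs and 105, 177 and 111 CPM in mESCs, 2.76-fold higher (log2 fold change 1.47, SE 0.28, edgeR adjusted p = 0.00146). Neither gene had an mESC library within the MEF range.

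Txn1, cytosolic thioredoxin itself, was at 1551, 1207, 1558 and 1258 CPM in MEFs and 1187, 1135 and 1279 CPM in mESCs and did not pass (log2 fold change -0.22, SE 0.13, edgeR adjusted p = 0.191), and its sign turned with library size alone (log2 0.069). Txn2, the mitochondrial form, was lower in every mESC library at 126 to 149 CPM in MEFs and 82.6 to 99.8 CPM in mESCs (log2 fold change -0.57, SE 0.14, edgeR adjusted p = 0.00733), a call lost with library size alone (log2 -0.29, edgeR adjusted p = 0.120). Txnrd2, the mitochondrial reductase, overlapped at 5.39 to 13.6 CPM in MEFs and 3.78 to 7.61 CPM in mESCs (log2 fold change -0.78, SE 0.43, edgeR adjusted p = 0.162). The 5 genes together summed to 1511 to 1900.5 CPM in MEFs and 1643 to 1687 CPM in mESCs.

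Metallothioneins, small proteins whose cysteines bind zinc and copper and also scavenge oxidants, showed the largest differences of the whole group. Mt2 (chr8:94172664-94173568, plus strand) was at 15.6, 22.5, 14.0 and 20.7 CPM in the MEF libraries and at 2881, 1801 and 2138 CPM in the mESC libraries. Mt1, its neighbor in the same cluster (chr8:94179082-94180327, plus strand), was at 36.0, 72.5, 25.0 and 68.2 CPM in MEFs and 2352, 1531 and 1962 CPM in mESCs. Every mESC library was far above every MEF library for both genes.

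The mean was 125-fold higher for Mt2 (log2 fold change 6.96, SE 0.24, edgeR adjusted p = 1.64e-08) and 38.6-fold higher for Mt1 (log2 fold change 5.27, SE 0.36, edgeR adjusted p = 1.08e-06). Leaving out each library in turn gave log2 values of 6.75 to 7.10 for Mt2 and 5.04 to 5.49 for Mt1. The MEF level was 0.801% of the mESC level for Mt2 and 2.59% for Mt1. Among pluripotency markers in MEFs the median was 0.766%, and only Epcam, at 4.45%, stood above the value of Mt1. The part of stray stem cell RNA in these MEF levels was not tested. An antisense gene, Gm45774, covers 73.5% of the exonic bases of Mt2. It held 0 to 2 counts in a MEF library and 9 to 16 in an mESC library, and the ratio of the sum was 124 beside 125 for Mt2 alone. The zinc and serum content of the media is not given in the sources used here.

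The promoters of both genes are shown because metals act on these genes through MTF1, which binds metal response elements. They are the 250 bases before the RefSeq start on GRCm38.p6, plus strand, at chr8:94172368-94172617 for Mt2 and chr8:94178839-94179088 for Mt1. Capitals mark each match to the core of the metal response element, TGCGCNC or TGCACNC, on either strand.
Mt2: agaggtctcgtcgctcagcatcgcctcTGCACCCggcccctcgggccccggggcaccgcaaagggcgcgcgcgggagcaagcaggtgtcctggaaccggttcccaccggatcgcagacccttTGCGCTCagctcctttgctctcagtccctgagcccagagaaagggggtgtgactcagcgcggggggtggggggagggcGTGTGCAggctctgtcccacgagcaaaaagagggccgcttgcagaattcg
Mt1: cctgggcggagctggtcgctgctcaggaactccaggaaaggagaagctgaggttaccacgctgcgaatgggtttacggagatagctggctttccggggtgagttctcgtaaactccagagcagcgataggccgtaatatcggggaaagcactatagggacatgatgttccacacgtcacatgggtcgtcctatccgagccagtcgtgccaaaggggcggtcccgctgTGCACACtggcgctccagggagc

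Mt2 held 3 matches, 223, 128 and 50 bases before the start, the last of them on the other strand, and Mt1 held 1, 23 bases before the start. These counts are of this window only, since bases after the RefSeq start or further upstream were not searched. At least 3 matches were found in 1.46% of all genes with a promoter and, among the 36 members with one, in Mt2 alone. At least 1 match was found in 11 of the 36 members (30.6%) and in 23.8% of all genes. The others were Gclm with 2 matches, one of which overlaps its antioxidant response element match, and Gpx7, Gstm1, Gstt1, Nfe2l1, Prdx4, Srxn1, Txnip and Txnrd2. Among these 9 genes only Gclm, Gstm1 and Txnip were called higher in mESCs, while Gpx7 and Prdx4 were lower.

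Fth1, the heavy chain of ferritin that stores iron, moved against the metallothioneins. It was at 800.4, 869.9, 773 and 1099 CPM in MEFs and 599.6, 502 and 619 CPM in mESCs, lower in every mESC library (log2 fold change -0.63, SE 0.15, edgeR adjusted p = 0.00553). With library size alone its call was lost (log2 -0.35, edgeR adjusted p = 0.103).

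Summed over the 42 genes, the level was 9480.5 to 10564 CPM in MEFs and 13750.1 to 15803 CPM in mESCs (means 10025 and 14543 CPM). Most of this rise lay in Mt1 and Mt2, with means of 50.4 and 18.2 CPM in MEFs and 1949 and 2273 CPM in mESCs. Of the counts before TMM scaling, the 42 genes made up 0.922% in an average MEF library and 1.63% in an average mESC library. The 3 metal-binding genes went from 954 ± 169 CPM (SD, n = 4) to 4795 ± 1002 CPM (SD, n = 3). Class sums were not tested, and values with no test describe these libraries. The sums of the regulators and of the thioredoxin system had log2 ratios of -0.23 and -0.04, and both turned positive with library size alone (0.046 and 0.24).

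**Figure D3:**
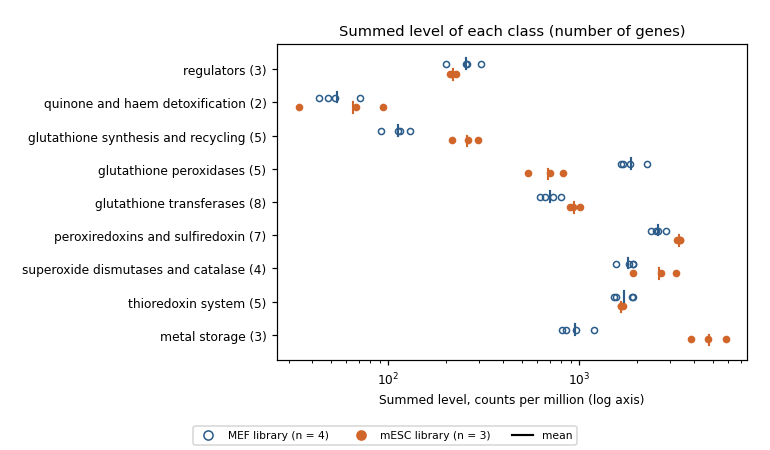
Summed level of the genes of each class in every library, in CPM on a log axis, with the mean of each cell type as a vertical line and the number of genes in brackets. Open blue circles are the 4 MEF libraries and filled orange circles the 3 mESC libraries; metal storage and glutathione synthesis lie higher in mESCs with no overlap, and the glutathione peroxidases lie lower.

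Some other members also share sequence with a gene nearby or with a copy, so that their counts could be split or joined. The antisense genes Trmt112 and Gm15441 cover 19.1% of the exonic bases of Prdx5 and 19.4% of those of Txnip. With the partner added, the ratio of mESC to MEF went from 0.245 to 0.289 for Prdx5 and from 2.76 to 2.77 for Txnip. Copies share 23.4% of the 50-base sequences in the last 500 bases of Sod1, 23% of those of Gstm1, 19.5% of those of Sod2 and 17.8% of those of Prdx1. Adding the copy Gm8566 gave a ratio of 1.406 beside 1.404 for Sod1 alone, and adding Gm21399 gave 1.855 for Prdx1, beside 1.855 alone. In the first MEF library Gm8566 held 107 counts and Gm21399 held 17.

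The MEF libraries did not agree equally well on all members. The second and the fourth MEF libraries, which held the Y-linked transcripts, were both above the first and the third for 13 members and both below for 10, in all 23 of 42 (54.8%), beside 44.2% of all genes tested. The pairs differed most for Gstt1, Gstm2 and Mgst3, whose levels were higher in the second and the fourth, and for Gsto1, Nqo1 and Gclc, whose levels were lower in them. Whether the sex of the embryos has a part in these differences was not tested.

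The mESCs were then compared with one MEF pair at a time. With the first and the third MEF libraries 30 members were called, 14 higher and 16 lower. With the second and the fourth 31 were called, 12 higher and 19 lower. Among all genes tested, 7032 of 17284 were called against the first pair and 7639 of 17447 against the second. Mgst3 was higher in mESCs against the first pair (log2 1.02, edgeR adjusted p = 0.0112) and at -0.40 against the second. Prdx6 was lower against the first pair (log2 -0.69, edgeR adjusted p = 0.0111) and at 0.11 against the second. Gstm2 was at -0.03 against the first pair and lower against the second (log2 -1.30, edgeR adjusted p = 9.59e-04). Calls against the second pair only were also made for Nqo1 (log2 1.38, edgeR adjusted p = 0.0256), Gstt1 (log2 -2.18, edgeR adjusted p = 0.0399) and Nfe2l1 (log2 -0.52, edgeR adjusted p = 0.0236), and against the first pair only for Txn1 (log2 -0.40, edgeR adjusted p = 0.0160). These 7 genes were not called with all 4 MEF libraries. Among the 30 members called with all 4, the first pair alone lost Hmox1, Sod1 (edgeR adjusted p = 0.172) and Sod3 (edgeR adjusted p = 0.0599), and the second pair alone lost Nfe2l2, Gstm1 (edgeR adjusted p = 0.131) and Sod1 (edgeR adjusted p = 0.0888). With 2 MEF libraries a comparison also has fewer samples. Mt1 was called against either pair, with log2 values of 5.96 and 4.76, and so was Mgst1, with -2.74 and -3.87.

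**Figure D4:**
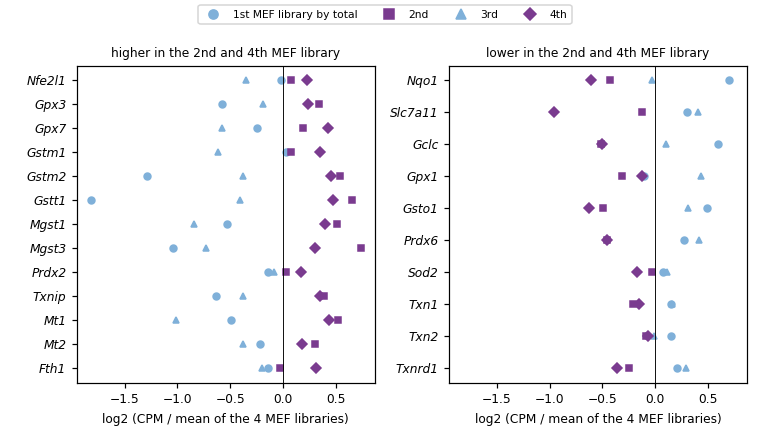
Level of 23 members in each MEF library, as the log2 ratio to the mean of the 4 MEF libraries, for the genes in which the second and the fourth libraries (purple) both lie above (left) or both below (right) the first and the third (light blue). The widest split is that of Gstt1, which ran from 2.69 to 15.0 CPM.

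Beyond the members, 160 other genes of these pathways were listed by role, and 138 could be tested. Of these, 28 were higher and 45 lower in mESCs, 52.9% called beside 47.9% of all genes. With library size alone the split was 37 higher and 38 lower. In each list, the called genes with the largest and the smallest log2 fold changes are named.

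Of 15 other regulators of NRF2 and NRF1 tested, 1 was higher, 6 were lower and 8 did not pass, and the 46.7% called was near the 47.9% of all genes. Mafg, a small MAF protein that pairs with NRF2 on DNA, was higher by a small margin (log2 fold change 0.48, SE 0.15, edgeR adjusted p = 0.0183), a call that was lost without the first or the second mESC library. Bach2, a repressor that competes for the same sites, was at 29.2 ± 8.22 CPM in MEFs (SD, n = 4) and 7.42 ± 2.70 CPM in mESCs (SD, n = 3) (log2 fold change -1.98, SE 0.33, edgeR adjusted p = 6.39e-04). Ngly1, which removes sugars from NRF1 so that it can act, was lower as well (log2 fold change -1.97, SE 0.28, edgeR adjusted p = 1.90e-04).

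Among 33 other glutathione genes tested, 9 were higher and 5 lower, 42.4% called beside 47.9% of all genes. Gstm3, a mu-class transferase, held 2, 0, 3 and 2 counts in MEFs and 156, 110 and 146 in mESCs (edgeR adjusted p = 8.62e-06). Ggt1, which breaks glutathione down at the cell surface, had 2, 1, 1 and 0 counts in MEFs and 70, 41 and 37 in mESCs (edgeR adjusted p = 6.06e-05). In MEFs both stood at or under the floor of 3 counts, so no fold change is given.

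Gstm5, another mu-class transferase, went the other way at 108 ± 16.1 CPM in MEFs (SD, n = 4) and 10.4 ± 0.844 CPM in mESCs (SD, n = 3) (log2 fold change -3.37, SE 0.19, edgeR adjusted p = 3.03e-07). Glrx5, a mitochondrial glutaredoxin for iron-sulfur clusters, was lower too (log2 fold change -1.25, SE 0.18, edgeR adjusted p = 2.38e-04). The mu class thus held Gstm3 and Gstm1 among genes higher in mESCs and Gstm5 among genes lower, and reads of such related genes can be split between them.

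The genes that supply NADPH were 3 higher and 7 lower of 15 tested, 66.7% called beside 47.9% of all genes. Mthfd1, a folate enzyme of the cytosol, was at 24.9 ± 5.65 CPM in MEFs (SD, n = 4) and 141 ± 1.69 CPM in mESCs (SD, n = 3) (log2 fold change 2.50, SE 0.20, edgeR adjusted p = 2.83e-06). Tkt, transketolase of the pentose phosphate pathway, was higher by 2.20-fold (log2 fold change 1.14, SE 0.14, edgeR adjusted p = 6.68e-05). Both of these enzymes of the cytosol were above the MEF level in mESCs. Aldh1l2, a folate enzyme of mitochondria, was furthest below at 29.9 ± 12.4 CPM in MEFs (SD, n = 4) and 0.867 ± 0.731 CPM in mESCs (SD, n = 3) (log2 fold change -5.08, SE 0.56, edgeR adjusted p = 3.22e-05), and at -6.01 without the second mESC library. Me1, the cytosolic malic enzyme, was 3.97-fold lower (log2 fold change -1.98, SE 0.28, edgeR adjusted p = 1.92e-04).

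Selenoproteins and the genes that insert selenocysteine were 1 higher and 10 lower of 21 tested, and 3 higher and 9 lower with library size alone. The 52.4% called with TMM was near the 47.9% of all genes. Secisbp2, which recruits the insertion machinery to the messenger RNA, was the one higher (log2 fold change 1.09, SE 0.22, edgeR adjusted p = 0.00195). Selenom, a selenoprotein of the endoplasmic reticulum, was at 112 ± 21.7 CPM in MEFs (SD, n = 4) and 10.1 ± 3.46 CPM in mESCs (SD, n = 3) (log2 fold change -3.47, SE 0.29, edgeR adjusted p = 3.86e-06). Selenoi, which makes phosphatidylethanolamine, was lower as well (log2 fold change -2.96, SE 0.44, edgeR adjusted p = 2.69e-04). The members Gpx1 and Gpx3, which are selenoenzymes too, were lower, whereas Gpx4 and Txnrd1 were higher.

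Metal and haem handling had 8 genes higher and 5 lower of 21 tested, and 10 and 3 with library size alone. With TMM 61.9% were called, beside 47.9% of all genes. Mt4, a further metallothionein, was at 2.06 ± 0.21 CPM in MEFs (SD, n = 4) and 8.62 ± 2.73 CPM in mESCs (SD, n = 3) (log2 fold change 2.05, SE 0.36, edgeR adjusted p = 8.87e-04). Slc30a1, a zinc exporter that is a known target of MTF1, was higher (log2 fold change 1.43, SE 0.37, edgeR adjusted p = 0.00857). The call of Slc30a1 was lost with the first and the third MEF libraries alone (edgeR adjusted p = 0.0582). Mtf1 itself, named after its values were seen, was at 15.9 to 22.3 CPM in MEFs and 26.4 to 36.2 CPM in mESCs (log2 fold change 0.73, SE 0.21, edgeR adjusted p = 0.015). The iron exporter Slc40a1 was lower (log2 fold change -3.62, SE 0.81, edgeR adjusted p = 0.0036), with 7, 9 and 0 counts in the mESC libraries and a log2 value of -4.22 without the second of them, and so was Slc48a1, a haem transporter (log2 fold change -2.44, SE 0.28, edgeR adjusted p = 4.48e-05).

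Repair and other detoxification genes were 5 higher and 7 lower of 25 tested, and 8 and 7 with library size alone. The 48% called with TMM was near the 47.9% of all genes. Cbr3, a carbonyl reductase (log2 fold change 1.72, SE 0.32, edgeR adjusted p = 0.00112), and Arrdc4, a relative of Txnip (log2 fold change 0.91, SE 0.24, edgeR adjusted p = 0.0102), were higher, the latter not against the second MEF pair (edgeR adjusted p = 0.0818). Msrb3, which repairs oxidized methionine in the endoplasmic reticulum, was at 55.0 ± 7.76 CPM in MEFs (SD, n = 4) and 1.74 ± 1.52 CPM in mESCs (SD, n = 3) (log2 fold change -4.96, SE 0.49, edgeR adjusted p = 1.57e-05), and at -5.87 without the first mESC library. Ugdh, which makes UDP-glucuronate for detoxification and for matrix sugars, was 6.46-fold lower (log2 fold change -2.69, SE 0.19, edgeR adjusted p = 1.55e-06).

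Of the enzymes that produce oxidants, 8 of 18 had enough counts, with 1 higher and 5 lower, 75% called beside 47.9% of all genes. Nox4, an NADPH oxidase that makes hydrogen peroxide (log2 fold change -2.99, SE 0.80, edgeR adjusted p = 0.00997), and Maob, a monoamine oxidase (log2 fold change -2.70, SE 0.49, edgeR adjusted p = 0.00103), were lower. Single libraries moved both values, to -4.02 for Nox4 without the first mESC library and to -3.35 for Maob without the second.

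**Figure D5:**
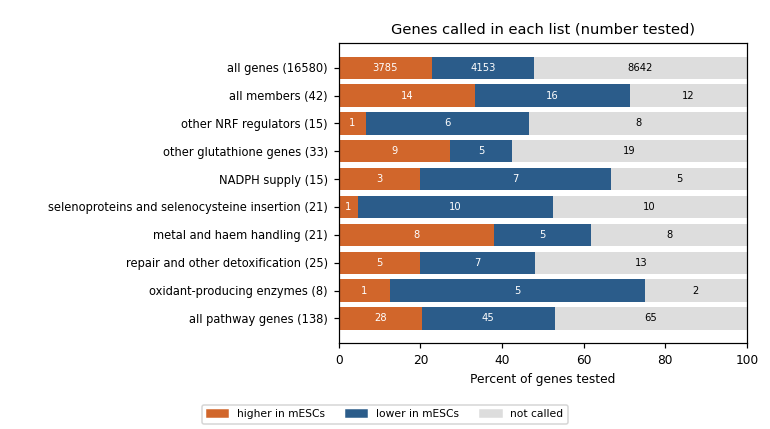
Percent of the tested genes of each list that were called higher (orange), lower (blue) or not called (gray), with counts on the bars and the number tested in brackets. The 42 members have 71.4% called, all genes 47.9%, and the lists of other pathway genes run from 42.4% for other glutathione genes to 75% for the oxidant-producing enzymes.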

How the data were processed

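Per the labels, 3′-biased poly(A) RNA-seq libraries with molecular identifiers were made. Per the study's methods, the authors demultiplexed and trimmed reads with Sabre and Cutadapt, aligned them to mm10 with STAR (2.4.2a in the submitters' processing notes), merged reads of one molecular identifier with Je, and ran featureCounts over exons on reads with a single alignment. The authors deposited whole-number gene counts without normalization. The annotation release and strand setting are not given in the sources used here, and 0 value columns were left unused.

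Counts were scaled by TMM, filtered with filterByExpr and fitted with edgeR 4.0.16 (limma 3.58.1, R 4.3.3) over 4 MEF and 3 mESC libraries without covariates, with the quasi-likelihood test and Benjamini-Hochberg adjustment at 0.05 over 16580 genes. The code was tested on simulated data. A prior count of 2 was used for log2CPM. The floor of 3 counts covers counting error only, whereas standard errors come from the fit and hold the spread between libraries. Total counts of 6528643 to 11441278 set the precision of each value. Within each cell type all pairs of libraries differed beyond sampling noise (chi-square per degree of freedom 15.6 to 31.1), so none was treated as a duplicate.

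The members and lists were chosen with earlier results of these data known. All members are named, and of each pathway list the called genes with the 2 largest and 2 smallest log2 fold changes. A gene that this rule picks is not reported here. For 2 listed genes (Ero1a, Ero1b) the older symbol of the table was matched through RefSeq synonyms. Coordinates are from GENCODE M21, sharing between genes is the percent of 50-base stretches of its transcripts, and promoters are from RefSeq on GRCm38.p6. Protein sequences were not analysed here. The alternatives were DESeq2 1.42.0, library size alone, DESeq2 size factors, no filter beyond 1 count, a minimum of 10 counts throughout one cell type, a test against a fold change of 2, a prior count of 0.5, each library left out, and, chosen after seeing the data, each MEF pair alone.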

Additional observations from a re-analysis of the deposited data

Results flagged for a closer look

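Mt4 was low in the fourth MEF library. Its level was 1.75 CPM, whereas the other 3 lay between 2.13 and 2.21 CPM. The gap to the nearest of them was 0.842 of the whole range, above Dixon's 95% critical value for 4 samples. In all 67 genes were examined in this way and 1 stood out, where chance gives about 3.35, or 1 in 20.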

How the results depend on the processing

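Of 630 values for members under an alternative, 566 kept their direction and their side of the threshold, 33 lost the call, 19 gained one and 12 turned sign. Leaving out each library in turn, 28 to 31 members were called (12 to 14 higher, 15 to 18 lower) and 66 to 74 pathway genes. Among all genes tested, 7032 to 7522 were then called. A test for changes beyond 2-fold called 3991 genes (1714 higher, 2277 lower), 17 members (7 higher, 10 lower) and 34 pathway genes. Of these 34, 2 were other NRF regulators, 8 other glutathione genes, 3 NADPH supply genes and 8 selenoprotein and selenocysteine insertion genes. Another 3 were metal and haem handling genes, 6 repair and other detoxification genes and 4 oxidant-producing enzymes. With library size alone, the log2 ratio of class sums was 0.046 for regulators, 1.48 for glutathione synthesis and recycling, 0.70 for transferases, 0.64 for peroxiredoxins and sulfiredoxin and 0.24 for the thioredoxin system. The shift of 0.28 between the scalings shows in these values.

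The values that turned sign belong to genes that were not called. Mgst3 was at -0.07 to 0.54 with a library left out, at -0.066 without the first and -0.0083 without the third MEF library, and at -0.40 with the second and the fourth MEF libraries alone, where Prdx6 was at 0.11 and Srxn1 at -0.075. Srxn1 was at -0.016 with no filter beyond 1 count, at -0.0048 with a minimum of 10 counts throughout one cell type, and at -0.21 to 0.22 with a library left out. Cat was at -0.32 to 0.50 with a library left out and negative without the second mESC library, and Txn1 was at 0.069 with library size alone. The cause was not tested.

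No paired analysis was possible because no count column is tied by its name to a numbered sample. The other alternatives, each MEF pair alone included, kept the counts of called members within 1.5 times. With 4 and 3 libraries, differences of low genes such as Sod3, Gstt1 and Txnrd2 are the least certain.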
